A study of Mus musculus with 18 samples.

Results

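The retina of C57BL/6J mice 5 days after crush of the optic nerve was compared with the retina of uninjured C57BL/6J mice on Illumina Mouse-6 V1 arrays. The groups are given by the sample labels, and they hold 6 of the 18 arrays of the series, 3 from controls and 3 from the 5-day time point. The other arrays are from C57BL/6J at 2 days and from DBA/2J controls, 2 days and 5 days, again 3 each. These mice were 60 to 90 days old as well. Mice of both groups were C57BL/6J labelled male and 60 to 90 days old, and RNA for each array came from a pool of 2 retinas, labelled as retina from both eyes. The injured mice had the exposed optic nerve grasped for 10 s with cross-action forceps behind the globe. The labels and methods do not say for the array mice whether both nerves were crushed, so a pool may hold retina of an uncrushed side. The controls were naive mice without surgery, so the effects of anaesthesia and of opening the conjunctiva cannot be told apart from those of the crush. The arrays carry 46116 probes. Of these, 29534 carry 1 gene symbol, which gives 17658 genes, each read at its brightest probe by the average of the 18 arrays unless another probe is named.

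Retinal ganglion cells are the only neurons of the retina whose axons run in the optic nerve to the brain. Crush severs these axons, and over the following days the cell bodies shut down many of their specialised genes, switch on genes of axon growth and stress, and in part die. Müller glia, the radial glia that span the retina, and astrocytes become reactive, and microglia, the resident macrophages, gather around the injured cells and engulf debris. The rods, cones and interneurons are not cut by the injury and make up most of the tissue. The arrays measure RNA from whole retina, so fewer cells of a type and less RNA per cell cannot be told apart in any result that follows.

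Levels are given in array units. The log2 signals of each array were set to a mean of 8 and a standard deviation of 2 units, and 1 unit corresponds to 0.514 to 0.558 on the log2 scale in the control arrays and to 0.578 to 0.66 in the 5-day arrays. The spread of signals thus differed between the groups before scaling: the 95th percentile was 8.53 to 10.1 times the 5th in the controls and 11.1 to 15.4 times at 5 days. For this reason log2 differences after quantile normalization are given beside the units. One control array went against its label. Control replicate 1 read 11.27 units for Xist, the RNA of the inactive X chromosome in females, where the other 17 arrays read at most 7.55, and 7.02 units for the Y-linked Eif2s3y, where they read at least 12.34, so it did not look male. Of the 2-day arrays, replicate 3 of C57BL/6J and replicate 1 of DBA/2J had levels of Alad, Glo1 and Gpnmb, which differ between the strains, like those of the other strain. They enter the fit only through the shared estimate of spread, and without them 285 probes were called higher and 275 lower 5 days after crush. Crystallins and other lens genes averaged 15.43 units in control replicate 3, against 9.09 and 10.51 in the other controls and 7.38 to 8.91 at 5 days. The mean levels of pigment epithelium, muscle, myelin and leukocyte markers differed by less than 1 unit between the 6 arrays, while the blood markers spanned 1.32 units, from 10.14 to 11.28 in the controls and from 9.96 to 10.28 at 5 days. No marker of another tissue was called.

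A probe was called when its adjusted p-value in limma, fitted to all 18 arrays and adjusted over all probes, was below 0.03. Of the 46116 probes, 628 were called (1.36%), 316 of them higher (0.685%) and 312 lower (0.677%) 5 days after crush. At 1 probe per gene, 393 genes were called (2.23%), 163 higher (0.923%) and 230 lower (1.3%). The control and 5-day arrays did not overlap for any of the 628 called probes, nor for 25.1% of all probes. The median called rise was 1.15 units (log2 0.57 after quantile normalization, 1.48-fold) and the median called fall was 1.04 units in size (log2 −0.55, 1.46-fold). In the control arrays the called rises had a median level of 8.05 units, against 7.21 for all probes and 12.4 for the called falls. Only 1 of the 316 rising probes, but 116 of the 312 falling ones, lay above 14 units in the controls.

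Without control replicate 1, 66 probes were called higher and 81 lower. Of the original calls, 64 rises and 72 falls held without that array and none changed sign. A stricter subset of 42 rises (38 genes) and 21 falls (17 genes) was called under every alternative scaling, filter and model of the spread and after leaving out any 1 of the 6 arrays, and genes of this subset are described below as held throughout. Every other call was lost in at least 1 of these settings. The plot of levels by array shows 24 of the called genes.

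**Figure D1:**
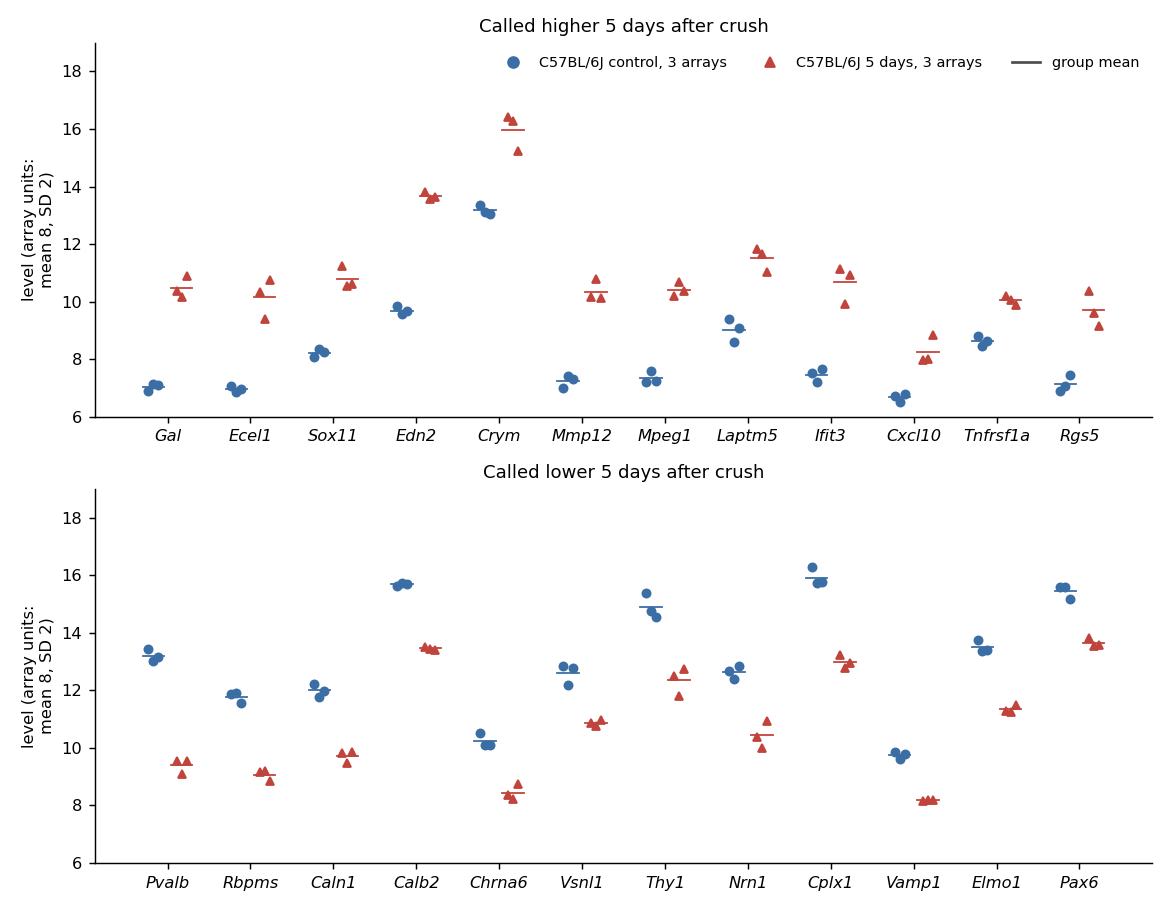
Levels in array units (each array's log2 signals set to mean 8 and SD 2) of 12 genes called higher and 12 called lower, with a blue circle for each of the 3 C57BL/6J control arrays, a red triangle for each of the 3 C57BL/6J 5-day arrays and a line at each group mean. The groups do not overlap for any of the 24 genes, from Gal at 6.89 to 7.12 against 10.18 to 10.88 units to Pvalb at 13.02 to 13.42 against 9.08 to 9.55 units.

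The largest called falls included genes that mark ganglion cells. Of 27 measured genes of a ganglion cell identity list, 8 were called lower and 2 higher, against 1.3% and 0.923% of all genes, and the median difference was −0.48 units, against −0.08 for all genes. After quantile normalization 9 were called lower with a median of log2 −0.33, and with the array median subtracted 4 were called lower with a median of log2 −0.06 and 14 members below 0. Pvalb, encoding the calcium buffer parvalbumin that in the mouse retina is found in ganglion cells and some amacrine cells, read 13.42, 13.02 and 13.15 units in the control arrays and 9.53, 9.08 and 9.55 at 5 days. It fell by 3.80 ± 0.39 units (SE; limma adjusted p = 0.000305; log2 −2.25), the largest called fall of a probe with a gene symbol. Rbpms, an RNA-binding protein used as a marker of nearly all ganglion cells, went from 11.89, 11.90 and 11.55 to 9.14, 9.21 and 8.85 units (difference −2.71 ± 0.27, limma adjusted p = 0.000305), and 1 of its other 4 probes was called lower as well. Both genes held throughout.

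Thy1, a surface glycoprotein carried by ganglion cells, read 15.39, 14.77 and 14.56 units in the controls and 12.51, 11.81 and 12.76 at 5 days. The groups were well apart, by 1.80 units at the nearest arrays, but the call (difference −2.55 ± 0.44, limma adjusted p = 0.00952) was lost without control replicate 1, control replicate 2 or 5-day replicate 2. Nrn1, encoding neuritin, a small anchored protein that promotes neurite growth, fell from 12.66, 12.39 and 12.84 to 10.38, 9.98 and 10.93 units. Chrna6, a nicotinic acetylcholine receptor subunit of ganglion cells, went from 10.53, 10.10 and 10.09 to 8.35, 8.23 and 8.75 units and held throughout. Its partner subunit Chrnb3 moved by −1.63 units with arrays that did not overlap, and its adjusted p in limma of 0.0312 lay just past the threshold. Htr1d, a serotonin receptor, was called lower by 1.11 units, a call that no single-array omission preserved.

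Members of the identity list that were not called included the neurofilament genes. Nefl read 7.35, 7.37 and 7.02 units in the controls and 7.32, 7.29 and 6.79 at 5 days, a level near that of the median probe, and Nefh and Nefm moved by −0.63 and −0.60 units with overlapping arrays. No gene was called in a list of 8 intermediate filament genes, 5 of them of neurons and 3 (Gfap, Vim and Nes) of glia or progenitors. Slc17a6, the vesicular glutamate transporter of ganglion cells, moved by −0.61 units and Sncg, gamma-synuclein, by −1.15 units, both short of the threshold. The 2 members called higher were Gal and Gap43, which are described with the injury response below.

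Among 20 measured transcription factors of ganglion cells, 3 were called lower and none higher. Isl2, a LIM homeodomain factor of a subset of ganglion cells, read 8.26, 8.50 and 8.18 units in the controls and 7.29, 7.20 and 7.37 at 5 days. Irx2, an Iroquois homeodomain factor, fell by 0.87 units and Satb1, a chromatin organiser, by 0.74, the last a call that every single-array omission ended. Pou4f1, which encodes the ganglion cell factor Brn3a, lay at 7.19 units in the controls and moved by −0.08 units at its probe, which stayed near the level of the median probe in both groups.

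Calcium-binding proteins were lower in number as well. Of 28 measured EF-hand proteins of neurons, 5 were called lower and none higher, while the list's median difference was 0.18 units. The 5 were Pvalb, Caln1, Calb2, Vsnl1 and Calm3. Caln1, encoding calneuron, read 12.21, 11.78 and 11.99 units in the controls and 9.83, 9.48 and 9.87 at 5 days (difference −2.27 ± 0.19, limma adjusted p = 0.00017), although neither of its other 2 probes was called. Calb2, calretinin, which in the retina marks amacrine cells and ganglion cells, went from 15.63, 15.74 and 15.69 to 13.52, 13.45 and 13.40 units, arrays of a group lying within 0.114 units of each other. Vsnl1, the calcium sensor visinin-like protein, fell by 1.74 units, and Vsnl1 and Caln1 held throughout. When 1 array was left out, 4 members of the list were called without control replicate 1 and 5 without any other.

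Fewer genes of transmitter release and of axon transport were called lower. Of 42 measured synaptic vesicle and release proteins, 3 were called lower and none higher, against 1.3% and 0.923% of all genes. The median difference of the list was −0.34 units and log2 −0.06 after quantile normalization. With the array median subtracted it was log2 0.07, and 29 members lay above 0. Cplx1, complexin, which clamps and then promotes vesicle fusion, read 16.27, 15.73 and 15.76 units in the controls and 13.21, 12.77 and 12.96 at 5 days (difference −2.94 ± 0.35, limma adjusted p = 0.00103). Vamp1, a vesicle SNARE, went from 9.86, 9.60 and 9.78 to 8.16, 8.17 and 8.17 units. These 2 genes held throughout, whereas Syt11, a synaptotagmin, was called (−1.17 units) in array units and not after quantile normalization.

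Of 31 measured axon transport and microtubule proteins, 3 were called lower and none higher, against 1.3% and 0.923% of all genes. They were Dpysl2, a collapsin response mediator that binds tubulin, Stmn3, a stathmin, and Kif5c, a kinesin heavy chain. Dpysl2 was the brightest of them at 18.73, 18.57 and 18.59 units in the controls and 16.92, 17.09 and 16.42 at 5 days. With any 1 of the 6 arrays left out, 1 gene of this list was called lower. After quantile normalization 2 were called lower, with a median of log2 −0.11. With the array median subtracted none was called, the median was log2 0.20 and 24 of the 31 lay above 0. Tuba4a, an alpha-tubulin of neurons, was the only gene called of 17 tubulin genes and fell by 1.37 units from 10.58, 10.30 and 10.62.

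The ion channel lists held few calls. Of 83 measured potassium channel genes, 3 were called lower and none higher, against 1.3% and 0.923% of all genes. None was called without control replicate 1. Kcnc4, a fast delayed rectifier, read 11.85, 11.62 and 11.35 units in the controls and 10.51, 10.19 and 10.38 at 5 days. Kcnk4 and Kcnab2 fell by 0.62 and 1.56 units, the last no longer called after quantile normalization. No voltage-gated sodium channel gene was called among 10 measured, and of 16 nicotinic receptor subunits 2 were called lower and none higher.

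The injury response of neurons contained some of the largest rises. Of 43 measured genes associated with axon growth and regeneration, 8 were called higher and none lower, and the median difference was 0.24 units. Gal, encoding the neuropeptide galanin, which axotomised sensory and motor neurons also make, was near the floor of the arrays in the controls at 6.89, 7.12 and 7.11 units and read 10.37, 10.18 and 10.88 at 5 days. Its rise of 3.43 ± 0.42 units (limma adjusted p = 0.00121; log2 1.88) held throughout. Ecel1, a membrane endopeptidase induced in damaged neurons, went from 7.08, 6.87 and 6.96 to 10.34, 9.39 and 10.76 units and also held throughout. Sox11, a transcription factor of immature neurons, read 8.06, 8.36 and 8.25 units in the controls and 11.23, 10.54 and 10.61 at 5 days, and 3 of its 4 probes were called.

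Smaller rises in the same list came from a growth cone protein, 2 transcription factors, a growth factor and a receptor. Gap43, a growth cone phosphoprotein, was already at 11.35, 11.97 and 12.20 units in the controls and reached 13.13, 13.31 and 12.88. Atf3, a stress-induced bZIP factor of axotomised neurons, went from 7.17, 7.25 and 7.21 to 9.64, 8.93 and 9.66 units. The groups of both genes were apart. Gap43 was not called without control replicate 1 or 2 or 5-day replicate 1 or 2, and Atf3 (limma adjusted p = 0.0183 with all arrays) was lost with the omission of any of the 6. Stat3, the signal transducer of interleukin-6 type cytokines, rose by 2.29 units from 10.45, 10.84 and 11.98, and its call was kept only without control replicate 3. Fgf2 and the TWEAK receptor Tnfrsf12a rose by 0.52 and 1.58 units, and both calls were lost without any 1 array. For the whole list, 3 to 5 genes were called when 1 array was left out. Jun, a partner of Atf3, moved by 0.55 units and did not pass the test (limma adjusted p = 0.27), and of 20 AP-1 and immediate early genes only Atf3 was called.

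Genes of the stress and death pathways showed few calls. None of 23 measured p53 targets was called. In a list of 34 Bcl2 family and caspase genes, Aifm1, the mitochondrial flavoprotein released in caspase-independent death, rose by 0.998 units from 6.66, 7.04 and 6.79, and Bok, a Bcl2 family member, fell by 1.28 units from 10.67, 10.31 and 10.26. Among 42 targets of the integrated stress response the only call was a fall of Xbp1, a factor of the unfolded protein response, by 0.95 units (limma adjusted p = 0.0299), which was lost after quantile normalization. In 12 of the 42, however, the 5-day arrays lay entirely above the controls and in 1 entirely below, against 9.58% and 18.2% of all genes. The median difference of the list was 0.22 units, with 26 members above 0. Of 26 heat shock proteins and chaperones Hsph1, a partner of Hsp70, alone was called and fell by 2.06 units.

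Edn2, encoding endothelin 2, a peptide that photoreceptors make and that acts on Müller glia in the injured mouse retina, had the largest called rise. It read 9.84, 9.56 and 9.67 units in the controls and 13.80, 13.57 and 13.63 at 5 days, a rise of 3.98 ± 0.60 units (limma adjusted p = 0.0043; log2 2.28) with arrays of a group within 0.285 units of each other. Its receptor Ednrb moved by −0.42 units and Edn1 by 0.12, neither of them called. Of 32 measured markers of reactive glia, 5 were called higher and none lower: Edn2, Cxcl10, Osmr, Stat3 and Fgf2. Osmr, the oncostatin M receptor, went from 8.20, 8.10 and 7.83 to 10.34, 9.83 and 10.33 units. Without 1 array the number of called markers was 2 or 3.

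The intermediate filament gene Gfap, the usual sign of reactive Müller glia, read 7.36, 7.44 and 7.48 units in the controls and 9.90, 8.86 and 9.79 at 5 days. The groups were 1.38 units apart, but the rise of 2.10 ± 0.57 units did not pass the test (limma adjusted p = 0.0725). In the fit to the arrays of these 2 groups alone Gfap was called (limma adjusted p = 0.0154), and its adjusted p lay between 0.0532 and 0.187 in the other alternatives. Of 25 genes of resting Müller glia only Crym was called. Müller glia markers varied within both groups. The mean of Rlbp1 and Glul was 13.24, 15.09 and 14.21 units in the controls and 12.70, 14.73 and 14.33 at 5 days. Crym encodes mu-crystallin, a thyroid hormone-binding protein, and rose from 13.37, 13.12 and 13.03 to 16.43, 16.26 and 15.24 units, a rise of 2.80 units that held throughout. Of 29 genes of interleukin-6 type signalling, Osmr, Socs5 and Stat3 were called higher, the suppressor of cytokine signalling Socs5 by 0.73 units. None of these 3 was called without control replicate 1, control replicate 2, 5-day replicate 1 or 5-day replicate 3.

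Several microglia and macrophage genes rose. Of 35 measured members 7 were called higher and none lower, against 0.923% and 1.3% of all genes, and the median difference was 0.57 units with 10 members below 0. In 16 of the 35 the 5-day arrays lay entirely above the controls, against 9.58% of all genes. Mmp12, the macrophage metalloelastase, read 7.01, 7.41 and 7.32 units in the controls and 10.17, 10.77 and 10.12 at 5 days, a rise of 3.10 ± 0.31 units (limma adjusted p = 0.000305). Mpeg1, the macrophage perforin, went from 7.22, 7.60 and 7.24 to 10.21, 10.68 and 10.35 units, although its other probe was not called. Laptm5, a lysosomal membrane protein of blood-derived cells, rose from 9.40, 8.58 and 9.10 to 11.85, 11.66 and 11.04 units.

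Ly86, a partner of the Toll-like receptor homologue RP105, rose by 2.09 units from 7.61, 7.55 and 7.51, and these 4 genes held throughout. The further calls were Cd52, a surface glycopeptide of leukocytes (1.66 units), Fcrls, an Fc receptor-like gene of mouse microglia (1.33 units), and Cx3cr1, the fractalkine receptor (0.85 units). With 1 array left out, 6 members were called without control replicate 1 and 7 without any other, and 7 were called after quantile normalization. Cx3cl1, the fractalkine that neurons display to that receptor, fell from 11.42, 11.54 and 11.44 to 10.79, 10.75 and 10.86 units. The mean of 3 markers of neutrophils and T cells stayed at 6.75 to 6.95 units in all 6 arrays, at or below the level of the median probe.

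Of 30 measured complement genes 3 were called higher and none lower, and the median of the list was 0.006 units with 15 members above 0 and 15 below. C4a went from 8.40, 8.05 and 8.66 to 10.78, 10.61 and 11.20 units, and its sequence is so close to that of C4b that a probe may report both. C1qb rose from 7.32, 7.10 and 7.51 to 9.25, 8.83 and 9.71 units and C1qc from 7.35, 7.04 and 7.08 to 9.49, 8.78 and 9.60. C1qa, the remaining chain of C1q, moved by 1.10 units with arrays that did not overlap (limma adjusted p = 0.0652). No complement gene was called without control replicate 1 or control replicate 2.

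The most widespread rise was that of interferon-stimulated genes. Interferons switch on a set of genes that detect and block viruses and raise antigen presentation by MHC class I. Of 43 measured members of the list 36 had a difference above 0, 25 had 5-day arrays entirely above the controls (9.58% of all genes), and the median difference was 0.82 units (log2 0.45), against −0.08 units for all genes. With all arrays 7 members were called higher and none lower: Ifitm3, Rsad2, Gbp3, Usp18, Irf9, Oasl2 and Isg15. Ifitm3, a membrane protein that blocks virus entry, read 8.86, 8.60 and 8.55 units in the controls and 12.50, 11.96 and 12.28 at 5 days, and a probe for it may also report related family members. Isg15, a ubiquitin-like modifier, went from 6.89, 6.69 and 6.54 to 8.65, 7.56 and 8.15 units. Rsad2, the antiviral enzyme viperin, read 7.74, 7.43 and 7.37 units in the controls and 10.97, 9.40 and 9.77 at 5 days.

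Within the 5-day group replicate 2 was the lowest of the 3 for each of these genes. The calls of this list rested on few arrays. None of the 43 was called without control replicate 1, 2 or 3 or without 5-day replicate 1, while 3 were called without 5-day replicate 2 and 2 without 5-day replicate 3. The median difference without control replicate 1 was 0.95 units and without control replicate 3 it was 0.73 units. Ifit3, an interferon-induced antiviral protein, is represented in the list by its brightest probe, which was not called. A dimmer probe for it read 7.52, 7.19 and 7.65 units in the controls and 11.14, 9.92 and 10.93 at 5 days, a rise of 3.21 ± 0.44 units (limma adjusted p = 0.00269) that held throughout, and 2 of its 3 probes were called. The chemokine Cxcl10, an interferon target that draws T cells, went from 6.73, 6.52 and 6.78 to 7.96, 7.99 and 8.83 units and held throughout as well. H2-T23, a non-classical MHC class I gene, rose by 2.83 units at a probe that may also read related MHC genes, and B2m, the light chain of MHC class I, moved by 2.63 units (limma adjusted p = 0.0461, not called).

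Interferon-stimulated genes carry a short promoter element, the interferon-stimulated response element, whose core is written here as GAAANNGAA, N being any base. This pattern was searched after the rise of these genes was seen, on both strands of the 250 bases before each gene's start in RefSeq (build GRCm38.p6). It occurred before 14 of 35 measured interferon and MHC class I genes with a window (40.0%), before 11 of 134 genes called higher (8.2%), before 19 of 195 called lower (9.7%) and before 8.2% of all 27025 genes with a window. The last 160 bases before the start are shown for 4 genes called higher, with matches in capitals and read 5′ to 3′ on the gene's own strand, TTCNNTTTC being the same pattern on the opposite strand. They lie at chr19:34583369-34583528 (+) for Ifit3, with 3 matches, at chr4:156200819-156200978 (−) for Isg15, with 3 overlapping matches, at chr12:26456453-26456612 (−) for Rsad2, with 1 match, and at chr3:142559884-142560043 (+) for Gbp3, with 2 overlapping matches.
Ifit3: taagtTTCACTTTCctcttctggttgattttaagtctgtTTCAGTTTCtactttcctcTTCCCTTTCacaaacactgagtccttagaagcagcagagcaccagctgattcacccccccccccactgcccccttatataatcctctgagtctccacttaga
Isg15: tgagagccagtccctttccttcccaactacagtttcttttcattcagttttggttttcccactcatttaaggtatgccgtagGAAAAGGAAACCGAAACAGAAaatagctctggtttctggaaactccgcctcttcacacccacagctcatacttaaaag
Rsad2: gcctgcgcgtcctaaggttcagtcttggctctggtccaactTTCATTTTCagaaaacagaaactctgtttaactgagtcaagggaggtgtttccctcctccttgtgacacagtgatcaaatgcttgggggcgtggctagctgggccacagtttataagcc
Gbp3: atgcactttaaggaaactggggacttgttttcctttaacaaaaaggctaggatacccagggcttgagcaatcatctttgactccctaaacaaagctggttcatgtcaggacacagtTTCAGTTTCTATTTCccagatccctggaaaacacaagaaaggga
Another start annotated for Gbp3 had no match, nor had the windows of Oasl2, Irf9 and Ifitm3, and Cxcl10 had 1 match 213 bases upstream. A match is a string of letters and was not tested as a binding site. The element of AP-1 factors, TGANTCA, occurred before 6.7% of genes called higher, 3.1% of those called lower, 7.8% of all genes and 6 of the 35 interferon and MHC class I genes (17.1%). The cyclic AMP response element TGACGTCA occurred before 11 of 195 genes called lower (5.6%) and before 1.8% of all genes. TTCNNNGAA, the pattern bound by Stat3, was found before 6.7% of genes called higher, 8.1% of all genes and 7 of those 35 (20%). TTGCATCA, an Atf4 element, was found before 0.7% of genes called higher, 0.9% of all genes and none of the 35, and TGACGTCA before none of the 35.

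**Figure D2:**
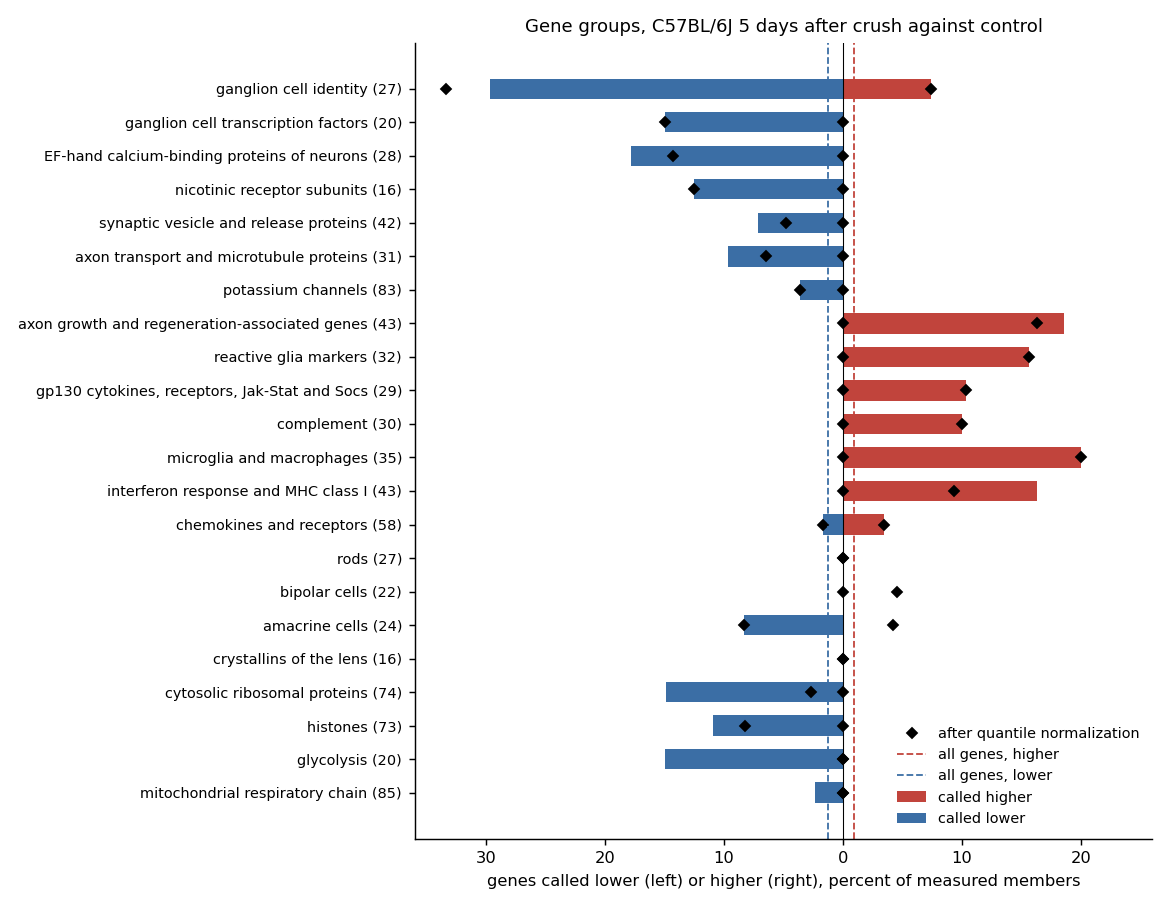
Percent of the measured members of 22 gene groups (number measured in brackets) called lower (blue, left) and higher (red, right), with the shares for all 17658 genes as dashed lines (1.3% and 0.923%) and the shares called after quantile normalization as black diamonds. The microglia group has 7 of 35 called higher on both scales, whereas the ribosomal group has 11 of 74 called lower in array units and 2 of 74 after quantile normalization.

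A few calls concerned matrix, vessels and other receptors. Tnfrsf1a, the main receptor of tumour necrosis factor, rose from 8.82, 8.45 and 8.64 to 10.21, 10.07 and 9.89 units, and Rgs5, a regulator of G-protein signalling found in pericytes, from 6.90, 7.06 and 7.45 to 10.37, 9.60 and 9.15 units, both of them held throughout. Of 22 endothelial and pericyte genes only Rgs5 was called. Mmp14, a membrane-bound metalloproteinase, rose by 1.10 units, a call lost after quantile normalization. Ccn2, the matrix-associated connective tissue growth factor, fell by 2.72 units to 10.87, 10.38 and 11.33, and Wwtr1, which encodes the co-activator Taz that can drive Ccn2, rose by 1.45 units, a call lost after quantile normalization and without any 1 array. In axon guidance and adhesion, a list of 75 genes, Nfasc, an adhesion molecule of axons, and Robo1, a Slit receptor, rose by 1.21 and 1.08 units. The ephrin receptor Ephb1 fell by 1.05. These were the only calls of the list, 2 higher and 1 lower, against 0.923% and 1.3% of all genes. With 1 array left out, 2 were called higher without 5-day replicate 3 and none in any other case. None of the 75 was called in the fit to the arrays of the 2 groups alone.

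Genes of the cells that the crush does not cut gave few calls, in short lists. Of all genes 1.3% were called lower and 0.923% higher. None of 27 rod genes, 22 bipolar cell genes or 12 horizontal cell genes was called, and after quantile normalization 1 bipolar cell gene was called higher. In units the 5-day arrays lay entirely below the controls for 12 of the rod genes and entirely above for 5. Over all genes these shares were 18.2% and 9.58%. The median rod gene moved by −0.81 units but by log2 0.04 after quantile normalization, so its direction depends on the scale. Of 18 cone genes Opn1mw, the medium-wavelength opsin, was called lower in units (18.40, 17.69 and 18.06 to 16.60, 16.29 and 15.61) and not after quantile normalization. Of 24 amacrine cell genes Calb2 and Pax6 were called lower, and the 5-day arrays lay entirely below the controls for 8 and entirely above for 2. Pax6, a homeodomain factor of amacrine and ganglion cells, read 15.58, 15.58 and 15.18 units in the controls and 13.83, 13.53 and 13.56 at 5 days at 1 of its 3 probes, and the other 2 were not called.

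Lens crystallins had large differences that did not pass the test. All 16 measured crystallins were lower on average at 5 days, with a median difference of −3.72 units. For 10 of them the 5-day arrays lay entirely below the controls, against 18.2% of all genes. The beta-crystallin Cryba2 read 12.29, 15.35 and 21.13 units in the controls and 8.44, 11.92 and 7.69 at 5 days, a span of 8.84 units among the controls (difference −6.90 units, limma adjusted p = 0.123). The median crystallin difference was −5.26 units without control replicate 1 and −1.30 units without control replicate 3, the array in which other lens genes were also highest. The part of lens tissue in these values was not tested.

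Lower calls in some lists of basic cell machinery and metabolism depended on the scale. Of 74 cytosolic ribosomal protein genes 11 were called lower and none higher, led by Rpl7 (16.50, 16.09 and 16.30 to 15.35, 14.84 and 15.19 units) and Rps26. After quantile normalization 2 of the 74 were called and the median was log2 −0.09, and with each array's median subtracted the median was log2 0.20. Of 73 histone genes 8 were called lower, led by H2ac20 (15.06, 14.88 and 14.98 to 13.86, 13.33 and 13.18 units) and H2ac11, with 6 called after quantile normalization, none with the array median subtracted, 4 with an intensity trend in the variances and 2 without control replicate 3. Histone genes share much of their sequence, so a probe may report several of them. Of 20 glycolysis genes Hk2, Pgk1 and Tpi1 were called lower, of 85 respiratory chain genes Atp5mpl and Ndufc1, and of 25 cholesterol genes Hmgcs1. Of 60 translation factors and 46 proteasome genes 1 each was called lower, with medians of 0.04 and −0.04 units, and none of 30 cell cycle or 42 cathepsin and lysosomal proton pump genes was called. Neither Hk2, Pgk1 nor Tpi1 was called after quantile normalization, and Hk2 and Pgk1 turned to differences of log2 0.15 and 0.12 with the array median subtracted.

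The same dependence was seen by brightness over all probes. The 2305 brightest probes, 5% of the array, had a median difference of −0.30 units, and 140 of them were called lower and 10 higher. After quantile normalization their median was log2 −0.03, with 66 called lower and 35 higher, and with the array median subtracted it was log2 0.33. Over all probes, 222 were called higher and 343 lower after quantile normalization, and 753 higher and 43 lower with the array median subtracted. Of the 312 falls called in units, 209 were also called after quantile normalization, as were 184 of the 316 rises. Pvalb, Rbpms, Caln1, Cplx1, Vamp1, Vsnl1 and Chrna6 were called lower, and Edn2, Gal, Ecel1, Sox11, Mmp12, Mpeg1, Laptm5, Ly86, Ifit3, Cxcl10 and Crym higher, on all of these scales.

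**Figure D3:**
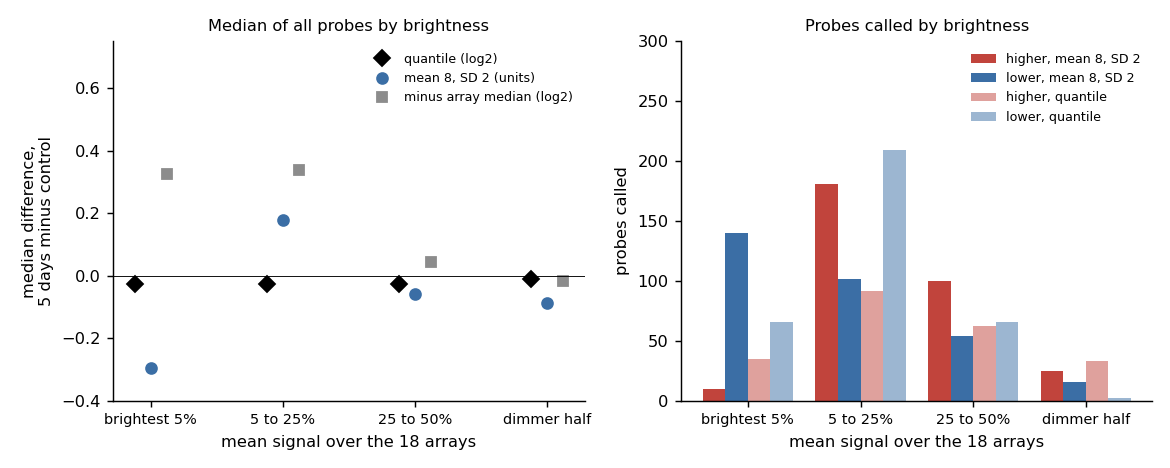
Probes grouped by mean signal over the 18 arrays. The left panel gives the median difference of 5 days minus control under 3 scalings (blue circles in array units, diamonds and squares in log2), and the right panel gives the number called higher (red) and lower (blue) in array units (dark) and after quantile normalization (pale). The brightest 5% of probes sit at −0.30 units and at log2 0.33 with the array median subtracted.

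The time course within the strain was read beside these values. The 2-day group shares its control arrays with the 5-day group, so only the values of each are given. At 2 days 9 probes were called (0.0195%), and 10 without the 2 arrays that looked like the other strain, against 628 at 5 days. The 2-day group holds 1 of these arrays, so the counts do not come from groups of like make-up. The median difference of the probes later called higher was 0.48 units and of those called lower −0.51. These medians were 0.47 and −0.47 without 2-day replicate 3, the array that looked like the other strain. Edn2 differed by −0.03 units at 2 days (0.24 without that array) and by 3.98 at 5 days, and Gal by 0.28 (0.44) and 3.43. Ifit3 differed by 0.08 units (−0.08) at 2 days and 3.21 at 5 days, and Cxcl10 by −0.03 (0.09) and 1.59. Other genes had much of their difference by day 2. Mmp12 differed by 2.55 units (2.90 without that array) at 2 days and 3.10 at 5 days, and Sox11 by 2.05 (2.45) and 2.57. Ccn2 differed by −2.86 units (−2.90) and −2.72. Among the falling ganglion cell genes Pvalb differed by −2.22 units (−2.15) at 2 days and −3.80 at 5 days, Thy1 by −1.15 (−0.73) and −2.55, and Nrn1 by −0.06 (0.16) and −2.20. The median interferon gene stood at 0.06 units (0.17) at 2 days and 0.82 at 5 days.

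**Figure D4:**
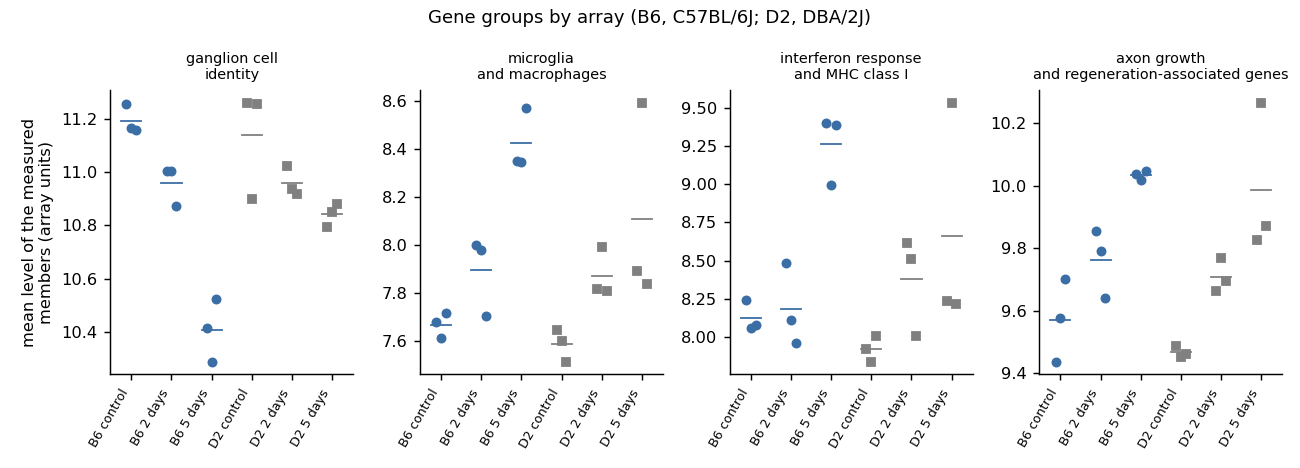
Mean level in array units of the measured members of 4 gene groups on each of the 18 arrays (blue circles, C57BL/6J; grey squares, DBA/2J; lines, group means; each panel has its own axis, which does not start at 0). The C57BL/6J 5-day arrays lie at 10.29 to 10.52 units for ganglion cell identity against 11.16 to 11.25 in the controls, and at 9.00 to 9.40 for the interferon group against 8.06 to 8.24.

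DBA/2J, a strain whose older animals develop pigmentary glaucoma, was crushed in parallel and measured on separate arrays. The DBA/2J mice were 60 to 90 days old, an age at which the study states that symptoms of this glaucoma were not yet present. Of the 316 probes called higher in C57BL/6J, 303 were also higher in DBA/2J at 5 days, and for 209 the DBA/2J arrays did not overlap in that direction. Of the 312 called lower, 303 were lower in DBA/2J and 221 did not overlap in that direction. This is 96.5% of equal sign, against 67.4% over all probes and 80.8% over the 11555 probes that did not overlap in C57BL/6J. Of those 11555 probes, 2858 did not overlap in DBA/2J either, 143 of them in the opposite direction. With the same threshold 11 of the rises and 13 of the falls were called in DBA/2J, where 0.0672% of all probes passed. The differences were larger in C57BL/6J for 295 of the rises and 295 of the falls, which the choice of probes by their C57BL/6J values favours.

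The test of the strain difference itself called no probe with limma at this threshold, 1951 having an unadjusted p-value below 0.05. The lowest adjusted p-value of a strain difference among the 628 was 0.175. Cxcl10 differed by 1.59 units in C57BL/6J and by −0.13 in DBA/2J, Ifit3 by 3.21 and 0.81, and Ccn2 by −2.72 and −0.17. Pvalb differed by −3.80 and −1.36 units, Rbpms by −2.71 and −1.28, Edn2 by 3.98 and 5.14 and Gal by 3.43 and 4.27. The interferon list had a median of 0.68 units in DBA/2J with 40 of 43 members above 0, and 1 DBA/2J array stood apart: its list mean was 9.53 units, against 8.22 and 8.24 in the other 5-day arrays of that strain. Without this array, replicate 2, the interferon median was 0.18 units with 31 of 43 members above 0, and 598 of the 628 probes kept the C57BL/6J direction in DBA/2J. The microglia list had a median of 0.24 units in DBA/2J (0.23 without that array). The crystallins, with a median of 0.91 units, were above 0 for all 16 members in DBA/2J, and for 15 with a median of 0.50 units without that array.

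**Figure D5:**
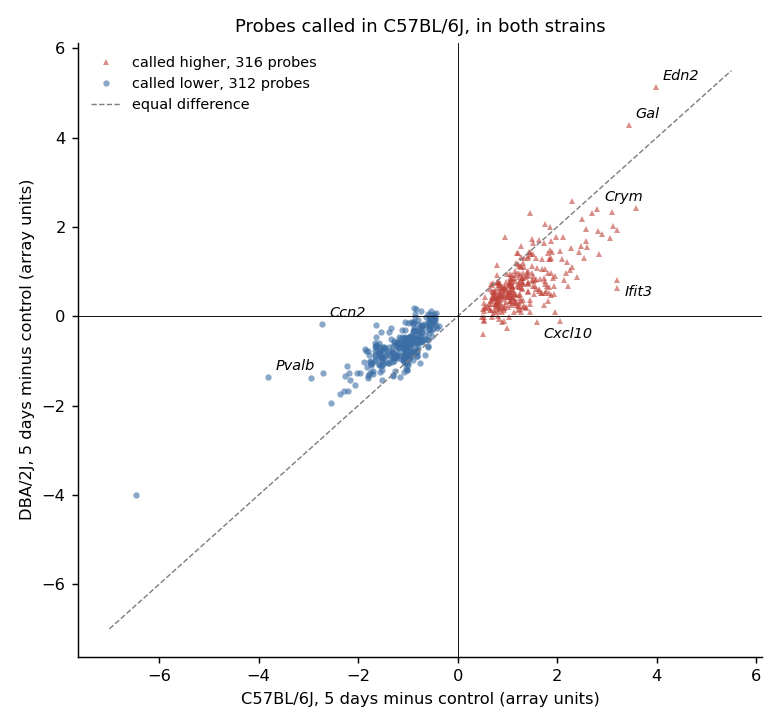
Differences of 5 days minus control in array units for the 628 probes called in C57BL/6J, with C57BL/6J on the x axis and DBA/2J on the y axis (red triangles, called higher; blue circles, called lower; dashed line, equal difference). In all, 606 probes have the same sign in both strains, and Edn2 and Gal lie above the line of equal difference.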

How the data were processed

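Retinal RNA was hybridised by the authors to Illumina Mouse-6 V1 BeadChips, 1 sample per array. The deposited intensity table holds 1 signal per probe and array, with no background correction or normalization given in the sources used here, and the deposited score table holds the authors' values on the scale 2 × z + 8 of log2 intensity. The intensities were rescaled in the same way here, and 99.7% of probes equalled the deposited scores within 0.02 units. Bead counts and detection p-values were not used here, so depth per probe is unknown, and precision is set by the number of arrays.

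Levels of all 18 arrays were fitted with 6 group means in limma 3.58.1 (R 4.3.3; lmFit, eBayes) with Benjamini-Hochberg adjustment over 46116 probes and a threshold of 0.03, the false discovery rate of the study's methods, which used SAM. The code was tested on simulated data. The labels do not say that the pooled samples were independent beyond their replicate numbers, so p-values measure the spread between these arrays. Which arrays shared a BeadChip is not given in the sources used here, and no chip effect could be fitted. Symbols came from the platform annotation, checked against RefSeq through the Entrez ID with no symbol changed, and the 16571 probes without a symbol were tested but not named. Tables were handled with Python 3.11.15.

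The 61 gene lists (1699 genes measured) and the genes named were chosen with earlier results of these data known. Named are the 15 largest called rises and falls, genes the study discusses, up to 4 members of each list by adjusted p-value, and members of short lists; the further called members of a list, and others, were named after their values were seen. Alternatives covered scaling, background correction, filter, threshold, model of spread, replicate block, arrays in the fit and SAM.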

Additional observations from a re-analysis of the deposited data

Results flagged for a closer look

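The search covered the called probes and the genes picked by the rules for naming, not all of which appear in the text. In 3 genes every C57BL/6J 5-day array lay on one side of its controls and every DBA/2J 5-day array on the opposite side. Cryba2 differed by −6.90 units in C57BL/6J and by 3.00 in DBA/2J, and Crygf, a gamma-crystallin, by −0.67 and 0.40 units; neither was called in C57BL/6J. Traf3ip2, an adaptor of interleukin-17 receptors, was called higher in C57BL/6J (7.81, 7.74 and 7.75 to 8.26, 8.16 and 8.43 units, 0.52 units) and differed by −0.40 units in DBA/2J. Its strain difference had an unadjusted p-value of 3.9e-05 in limma and an adjusted p-value of 0.6, and those of Cryba2 and Crygf had an adjusted p-value of 0.999, so none of the strain differences passed the test. Over all probes, 143 of the 2858 whose groups were apart in both strains went in opposite directions. Groups of 3 arrays were not searched for single outlying arrays. Lens genes were highest in C57BL/6J control replicate 3, and the median crystallin difference in that strain was −3.72 units with all arrays and −1.30 without it.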

How the results depend on the processing

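Of 1714 values of 101 named genes under the alternatives, 1322 kept direction and side of the threshold, 371 were no longer called, 19 were newly called and 2 turned, these being Pgk1 (log2 0.119) and Hk2 (log2 0.146) with the array median subtracted. Of the 628 called probes, 27 falls turned sign under that scaling and none in any other fit with limma. The numbers called in all, higher and lower were 395, 247 and 148 with an intensity trend, 1135, 573 and 562 at an adjusted p-value below 0.05, and 1755, 1258 and 497 with SAM. With the array median subtracted, 753 probes were called higher and 43 lower. With 1 array left out, 147 to 475 probes were called, 66 to 333 higher and 81 to 161 lower. The lowest totals were 147 without control replicate 1, 218 without control replicate 3 and 226 without control replicate 2, and 261 and 280 were called without 5-day replicates 1 and 2. List members called numbered 101, 39 higher and 62 lower. With 1 array left out these were 37 to 61, 14 to 25 and 23 to 38, with SAM 176 in all and 87 higher, and with the array median subtracted 10 lower. Fewer arrays give a test with less power, and the cause of the other changes was not tested.

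The deviations of equally numbered control and 5-day arrays correlated at 0.695, 0.588 and −0.043, and those of unequally numbered arrays at −0.704 to 0.235. The labels give the numbers no meaning, so the main fit did not take them as pairs and a block by number was an alternative. A batch shared by arrays of equal number was not tested. With the replicate block 809 probes were called, 413 higher and 396 lower. Of the 628 probes, 24 were called in DBA/2J, 59 with the block and 7 with the array median subtracted. The strain difference called no probe under any scaling or with the block.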

Other observations

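Genes of the interferon response outside the list also rose, and they were picked after their values were seen. Trim30a, an interferon-induced ubiquitin ligase of mice, went from 6.96, 7.15 and 7.36 to 9.66, 9.07 and 8.89 units (2.05 units, limma adjusted p = 0.000333), with differences of −0.03 units at 2 days and −0.10 in DBA/2J. Cmpk2, a mitochondrial nucleotide kinase next to Rsad2 in the genome, rose by 1.64 units from 8.79, 8.63 and 8.98, and Samd9l by 1.41 units from 8.12, 8.04 and 8.06. Uba7, the enzyme that activates Isg15, rose by 1.40 units and Ube2l6, its conjugating enzyme, by 0.99 units. Ddx58, which encodes the viral RNA sensor RIG-I, rose by 1.27 units. The arrays of the 6 genes did not overlap, which was so for every called probe. Over all genes, 9.58% had 5-day arrays entirely above the controls. Cmpk2 and Trim30a were called in every setting tried.

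Further called genes outside the lists were also picked after their values were seen. Rbpms2, a paralogue of Rbpms, read 8.87, 8.85 and 8.84 units in the controls and 7.26, 7.43 and 7.74 at 5 days (−1.38 units, limma adjusted p = 0.00017). Bcl11b, a zinc finger factor of projection neurons, was called lower at 2 probes, by 0.85 and 0.58 units. Elmo1, an adaptor of cell engulfment and migration, fell by 2.16 units at 1 of 14 probes and not at the others. Aqp1, a water channel, fell from 16.36, 16.18 and 16.41 to 14.28, 14.59 and 13.52 units, and Lypd6, a modulator of nicotinic receptors, by 1.20 units. Mest, an imprinted gene, rose by 2.26 units from 9.41, 9.73 and 9.94. Sec22c, a protein of vesicle traffic, rose by 2.69 units at 1 of 4 probes.

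Of the 628 called probes 127 carry no symbol, 69 higher and 58 lower. The largest called fall was at such a probe, 101240110, which read 13.41, 15.24 and 14.69 units in the controls and 7.61, 8.90 and 7.41 at 5 days (−6.48 units, limma adjusted p = 0.00597). It differed by −4.04 units at 2 days and by −4.0 in DBA/2J.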
